A study of Mus musculus with 6 samples.

Results

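PRC1.6 is a polycomb repressive complex that carries MAX and its partner MGA as DNA-binding subunits. The transcripts described here are those of its other subunits, chosen by gene symbol from the make-up of the complex: E2f6, Tfdp1, L3mbtl2, Pcgf6, Cbx3, Ring1, Rnf2, Rybp, Yaf2 and Wdr5, which are 10 of the 24391 genes counted. They were measured by RNA sequencing in 3 libraries with MAX restored and 3 control libraries of mRPMaxKO. This is a mouse line from a lung tumour of the RPMax-/- genotype, on a mixed 129/SvJ and C57BL/6 background. The genotype label is read here as targeting of Rb1, Trp53 and Max. Both groups share this genotype, and the MAX restored cells express MAX from a doxycycline-inducible lentiviral vector. The transduced cells were a polyclonal, puromycin-selected population of a single line below passage 20, and a treatment of 4 days with doxycycline is given under every library. The growth and treatment text is the same for both groups and does not set the arms apart, so it leaves unsaid how the control cells differed in vector or doxycycline, and whether the replicates are separate cultures. P-values here thus measure only the spread between these libraries, which may be technical.

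Polycomb repressive complexes of the PRC1 type attach ubiquitin to histone H2A through the RING finger ligases RING1 and RNF2, and a PCGF protein decides which version of the complex is built around that ligase. In PRC1.6 the PCGF protein is PCGF6, and the complex is brought to DNA by MAX with MGA at E-boxes and by E2F6 with its dimer partner at E2F sites. It is best known for silencing germline and meiotic genes in mouse embryonic stem cells and somatic cells. MGA acts as its scaffold, and the MAX protein that pairs with MGA is the same one that MYC needs.

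Restoring MAX was followed by small changes in the transcripts of these subunits. Rybp and Tfdp1 rose, Wdr5, L3mbtl2, Pcgf6 and Yaf2 fell, and E2f6, Cbx3, Ring1 and Rnf2 did not pass the test. No change reached 1.5-fold in either direction: the fitted folds of MAX restored over control lay between 0.754 (Wdr5) and 1.22 (Rybp). All 10 genes had enough counts to be tested. With 6 of 10 called, at an adjusted p under 0.05 in edgeR's quasi-likelihood test, the share of the subunits was near that of all genes, of which 63.5% were called. Higher calls numbered 2 of 10 subunits against 31.2% of all tested genes, and lower calls 4 of 10 against 32.3%. The median absolute log2 fold change was 0.17 over the subunits and 0.26 over all 12664 tested genes, and the signed medians were -0.12 and -0.00362. CPM values (counts relative to the TMM-adjusted library total) did not overlap between groups for 6 of 10 subunits, the 6 called, where 67.1% of all tested genes did not overlap. In bulk RNA, fewer cells expressing a gene and less RNA per cell cannot be told apart. Without control 1, the library that stood apart, 2 subunits were still called higher and 4 lower.

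**Figure D1:**
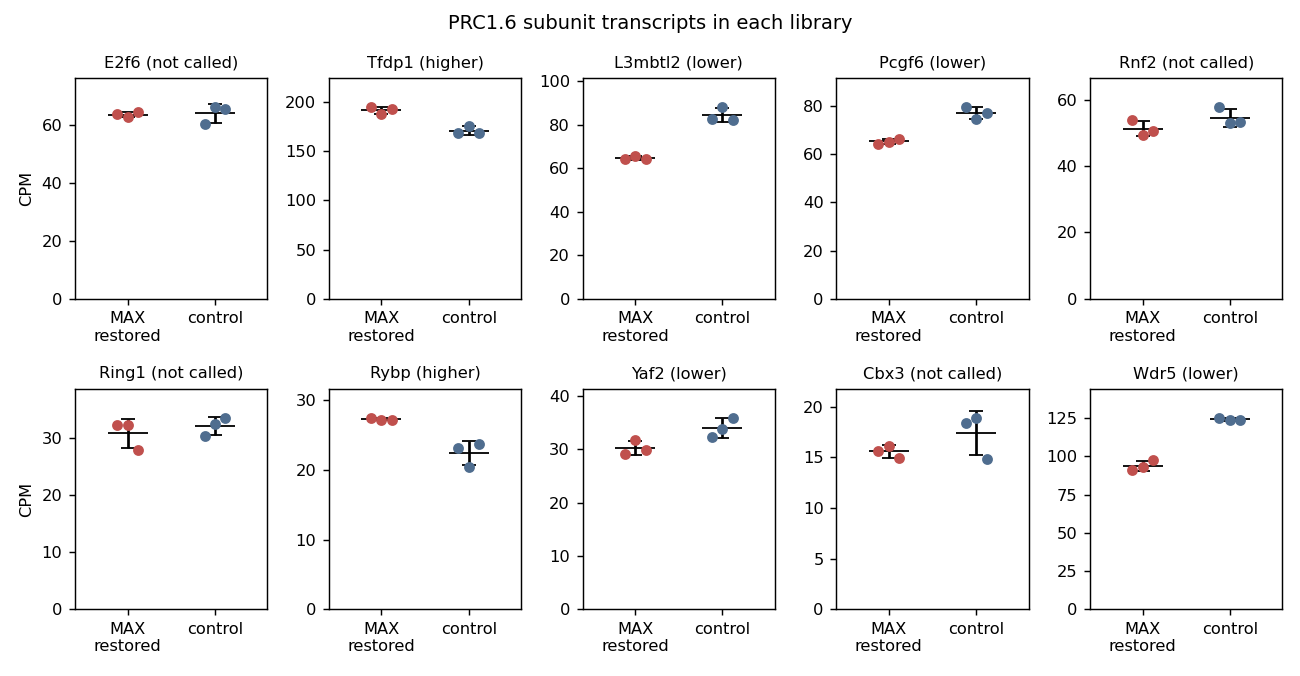
CPM of each PRC1.6 subunit (vertical axes, from 0) in the 3 MAX restored and the 3 control libraries, with the mean as a horizontal line and the SD as error bars; the call of edgeR's test stands above each panel. The groups do not overlap for Tfdp1, L3mbtl2, Pcgf6, Rybp, Yaf2 and Wdr5, and overlap for E2f6, Rnf2, Ring1 and Cbx3.

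Total counts were between 10253303 and 11925909 in the MAX restored libraries and between 10046899 and 10425210 in the control libraries. Max itself had 15979, 14933 and 13369 counts in MAX restored libraries 1, 2 and 3, against 639, 691 and 620 in control libraries 1, 2 and 3, a log2 fold change of 4.38 (SE 0.04; edgeR adjusted p = 1.68e-24). Counts are summed over the gene, so they neither separate vector from endogenous Max nor test for deletions in Rb1 and Trp53. Rb1 had 2983 to 3461 counts in MAX restored libraries and 3191 to 3483 in control libraries. Trp53 had 113 to 139 counts in MAX restored libraries and 114 to 144 in control libraries. Control 1 differed from the other control libraries by a chi-square per degree of freedom of 8.91 and 10.2, whereas pairs of MAX restored libraries gave 1.24 to 1.46. The ribosomal RNA precursor Rn45s took 0.121% to 0.160% of the counts of MAX restored libraries, and 0.996% of control 1 against 0.187% and 0.109% of controls 2 and 3. Neuroendocrine markers, which define the small cell lung cancer type, were abundant: Chga averaged 1675 CPM with MAX restored and 1269 CPM in controls, and Syp 484 CPM with MAX restored and 455 CPM in controls. Fibroblast and immune markers were near zero in both groups: the 6 fibroblast markers summed to 1.76 to 2.93 CPM with MAX restored and 1.28 to 1.78 CPM in controls, and the 6 immune markers to 2.41 to 3.32 CPM with MAX restored and 1.49 to 2.95 CPM in controls. Of the 5 endothelial markers Vwf alone was abundant, at 432 CPM with MAX restored and 559 CPM in controls, while Cdh5, which defines endothelium, was at 0 counts in all 6 libraries. The 7 lung epithelial markers, among them the general epithelial gene Cdh1, summed to 1597 to 1630 CPM with MAX restored and 1542 to 1615 CPM in controls. Of the 5 tested, Foxj1 (8.50 CPM with MAX restored, 3.72 in controls) and Ager (2.64 CPM with MAX restored, 1.34 in controls) rose and Sftpc (26.0 CPM with MAX restored, 31.6 in controls) fell; their part in the results on the subunits was not tested.

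The upstream sequence of 3 subunits is shown because MAX binds E-boxes: Tfdp1, the only subunit with the canonical E-box CACGTG in the window searched, and Wdr5 and L3mbtl2, the subunits that fell most. Each is the 250 bases before an annotated start, from RefSeq on GRCm38.p6, written 5′ to 3′ on the gene's strand, with capitals marking any match on either strand to CACGTG, to CACGCG (a variant E-box) or to the E2F motifs TTTCGCGC and TTCCCGCC. A match is a description of the letters and not a shown binding site.
Tfdp1, chr8:13338501-13338750, plus strand: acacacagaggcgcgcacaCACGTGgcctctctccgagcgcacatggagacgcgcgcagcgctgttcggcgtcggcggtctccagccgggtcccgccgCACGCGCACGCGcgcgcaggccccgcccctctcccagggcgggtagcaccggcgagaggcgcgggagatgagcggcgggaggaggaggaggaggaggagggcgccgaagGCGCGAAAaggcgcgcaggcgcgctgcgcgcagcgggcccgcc
Wdr5, chr2:27514897-27515146, plus strand: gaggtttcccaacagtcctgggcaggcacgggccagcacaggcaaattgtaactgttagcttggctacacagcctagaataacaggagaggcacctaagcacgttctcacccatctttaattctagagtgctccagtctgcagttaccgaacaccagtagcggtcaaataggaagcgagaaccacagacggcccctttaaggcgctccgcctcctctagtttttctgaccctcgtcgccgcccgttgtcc
L3mbtl2, chr15:81663639-81663888, plus strand: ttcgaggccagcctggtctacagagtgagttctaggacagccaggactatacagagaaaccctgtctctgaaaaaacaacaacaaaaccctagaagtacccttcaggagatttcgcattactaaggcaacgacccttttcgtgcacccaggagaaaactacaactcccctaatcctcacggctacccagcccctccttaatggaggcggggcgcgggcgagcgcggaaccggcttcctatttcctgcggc

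Promoters were found for 8 of the 10 subunits, with 10 starts in all; Rybp and Yaf2 had no entry. In the Tfdp1 window the E-box starts 231 bases before the start site, the pair of CACGCG matches 152 and 146 bases before it, and the E2F match, read on the other strand as GCGCGAAA, 43 bases before it. A second Tfdp1 start holds the same CACGCG and E2F matches and no CACGTG within its 250 bases. A subunit was counted if any of its starts held the motif, whereas the percentages are of single starts, so the units differ. CACGTG was present before 1 of 8 subunits and before 6.02% of 32851 starts of all genes. CACGCG was present before 2 subunits, Tfdp1 and Ring1, and before 7.62% of starts. TTTCGCGC was present before 1 subunit and 0.256% of starts, and TTCCCGCC before none of the 8 and 1.86% of starts. The windows of Wdr5 and L3mbtl2 hold none of the 4 motifs.

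In the DNA-binding arm, Tfdp1 rose and E2f6 did not pass the test. E2f6 encodes an E2F protein that represses without the activation domain of other E2Fs. It had 63.9, 62.8 and 64.7 CPM in MAX restored libraries 1, 2 and 3, against 60.5, 66.3 and 65.8 CPM in control libraries 1, 2 and 3. The groups overlapped, and the log2 fold change of -0.010 had a 95% interval from -0.12 to 0.10 (edgeR adjusted p = 0.878). Tfdp1 encodes DP1, with which E2F proteins pair to bind DNA. It had 195, 188 and 192 CPM in MAX restored libraries 1, 2 and 3, against 168, 176 and 169 CPM in control libraries 1, 2 and 3. Every MAX restored library lay above every control, and the rise was 1.12-fold (log2 0.17, SE 0.04; edgeR adjusted p = 0.00262). Tfdp1 spans 13338751 to 13378448 of chromosome 8 in mm9, plus strand, and has 1 named pseudogene in RefSeq. Of its 20 nearest tested neighbours 9 were higher and 1 lower (median log2 fold change 0.11), where 31.2% of all tested genes were higher and 32.3% lower. The E-box pair itself moved with Max as stated and with Mga lower: Mga averaged 232 CPM with MAX restored and 292 CPM in controls (log2 -0.34, SE 0.04; edgeR adjusted p = 6.26e-07).

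The transcripts of PCGF6 and L3MBTL2, which other PRC1 forms lack, were both lower. Pcgf6, whose product names the complex, had 64.3, 65.2 and 66.3 CPM in MAX restored libraries 1, 2 and 3, against 79.5, 74.4 and 77.0 CPM in control libraries 1, 2 and 3. The groups were clear of each other, with a log2 fold change of -0.24 (SE 0.05; edgeR adjusted p = 0.000277). L3mbtl2 encodes a protein of MBT repeats that binds nucleosomes and promotes their compaction. It had 64.0, 65.6 and 64.2 CPM in MAX restored libraries 1, 2 and 3, against 82.7, 88.0 and 82.2 CPM in control libraries 1, 2 and 3. This fall, to 0.766 of the control level (log2 -0.38, SE 0.05; edgeR adjusted p = 9.52e-07), was larger than the spread of either group. L3mbtl2 spans 81494319 to 81518745 of chromosome 15 in mm9, plus strand, and 111 of its 3810 exonic bases are shared with Chadl on the opposite strand. Reads in the shared bases count for neither gene, because strand was not used and reads overlapping several genes were not counted. Chadl rose (log2 0.95, SE 0.17; edgeR adjusted p = 8.7e-05), with 73 to 92 counts in MAX restored libraries and 34 to 42 in controls; its part in the L3mbtl2 value was not tested, and the shared stretch is 2.91% of the exonic length.

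The catalytic pair did not change detectably. RNF2, also called RING1B, and RING1 are alternative ubiquitin ligases of every PRC1 form. Rnf2 had 53.9, 49.5 and 50.5 CPM in MAX restored libraries 1, 2 and 3, against 57.8, 53.0 and 53.2 CPM in control libraries 1, 2 and 3. Ring1 had 32.4, 32.4 and 27.9 CPM in MAX restored libraries 1, 2 and 3, against 30.4, 32.5 and 33.6 CPM in control libraries 1, 2 and 3. Both genes overlapped between groups, though Ring1 was lowest in MAX restored library 3. The log2 fold change of Rnf2 was -0.09 (95% interval -0.21 to 0.03; edgeR adjusted p = 0.177) and that of Ring1 -0.06 (-0.21 to 0.10; adjusted p = 0.541), so for both a fall below 0.863-fold or a rise above 1.07-fold lay outside the intervals. Per kilobase of exon, Ring1 stood at 0.894, 0.974 and 0.824 of Rnf2 in MAX restored libraries 1, 2 and 3, and at 0.784, 0.913 and 0.940 in control libraries 1, 2 and 3. That ratio did not differ beyond its spread (log2 difference 0.03; two-sided exact permutation p = 0.8, n = 3 libraries a group, where 0.1 is the smallest p possible).

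Rybp and Yaf2, paralogues that encode alternative partners of the ligase and raise its activity, went in opposite directions. Rybp had 27.5, 27.2 and 27.2 CPM in MAX restored libraries 1, 2 and 3, against 23.1, 20.4 and 23.8 CPM in control libraries 1, 2 and 3. It was higher in each MAX restored library than in any control, by 1.22-fold (log2 0.28, SE 0.08; edgeR adjusted p = 0.00474), the largest rise among the 10. Yaf2 had 29.2, 31.8 and 29.9 CPM in MAX restored libraries 1, 2 and 3, against 32.2, 33.8 and 35.9 CPM in control libraries 1, 2 and 3. The gap between the highest MAX restored and the lowest control library was small, and the log2 fold change of -0.17 (SE 0.07) passed narrowly (edgeR adjusted p = 0.0452). The Yaf2 call was lost in 4 of the 6 fits without a single library (MAX restored 1 or 3, control 2 or 3; adjusted p between 0.0132 and 0.183 over the 6) and with DESeq2 (adjusted p = 0.162). Within a library, where scaling plays no part, the ratio of Rybp to Yaf2 per kilobase of exon was 0.499, 0.454 and 0.481 in MAX restored libraries 1, 2 and 3, against 0.381, 0.320 and 0.351 in control libraries 1, 2 and 3. The ratio was thus higher in all 3 MAX restored libraries, by 1.37-fold (log2 difference 0.45), at the smallest p that 3 against 3 allows (two-sided exact permutation p = 0.1). Yaf2 stayed the more abundant transcript of the pair per length in all 6 libraries. Rybp has a named pseudogene in the GRCm38 annotations, and reads that map to both could be missing from its counts.

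Cbx3 and Wdr5 encode subunits that also work in many other complexes. CBX3, or HP1 gamma, binds methylated histone H3. Cbx3 had 15.6, 16.1 and 14.9 CPM in MAX restored libraries 1, 2 and 3, against 18.4, 18.9 and 14.9 CPM in control libraries 1, 2 and 3. Control 3 lay among the MAX restored libraries while controls 1 and 2 lay above them, and the log2 fold change was -0.16 (95% interval -0.37 to 0.06; edgeR adjusted p = 0.186). Without control 3 it was -0.26 and passed the threshold (adjusted p = 0.0318), so that library decides the call. With 150 to 197 counts per library Cbx3 had the fewest counts of the 10, and it has 8 named pseudogenes in the GRCm38 annotations, none of them in the annotation used for counting. Reads that map to several places were not counted, so its level can be understated. WDR5 is a WD-repeat protein shared with the MLL histone methyltransferase complexes. Wdr5 had 90.9, 92.8 and 97.6 CPM in MAX restored libraries 1, 2 and 3, against 125, 124 and 124 CPM in control libraries 1, 2 and 3. The lowest control lay well above the highest MAX restored library, and the fall to 0.754 of the control level was the largest of the 10 (log2 -0.41, SE 0.05; edgeR adjusted p = 3.0e-07). Even so, 32.7% of all tested genes had a larger absolute log2 fold change than Wdr5. On chromosome 2 of mm9 the gene spans 27370667 to 27392055. The 20 nearest tested neighbours of Wdr5 had a median log2 fold change of 0.19, with 13 called higher and 5 lower. Among the other subunits, the 20 neighbours of Cbx3 had 11 higher and 2 lower, and those of E2f6 5 higher and 9 lower. Those of Rnf2 had 9 higher and 4 lower, of Rybp 8 and 5, and of L3mbtl2 8 and 7. Those of Yaf2 had 5 higher and 6 lower, of Pcgf6 5 and 7, and of Ring1 7 and 9. Over all tested genes 31.2% were higher and 32.3% lower. Any part of the neighbourhood in the subunit values was not tested.

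**Figure D2:**
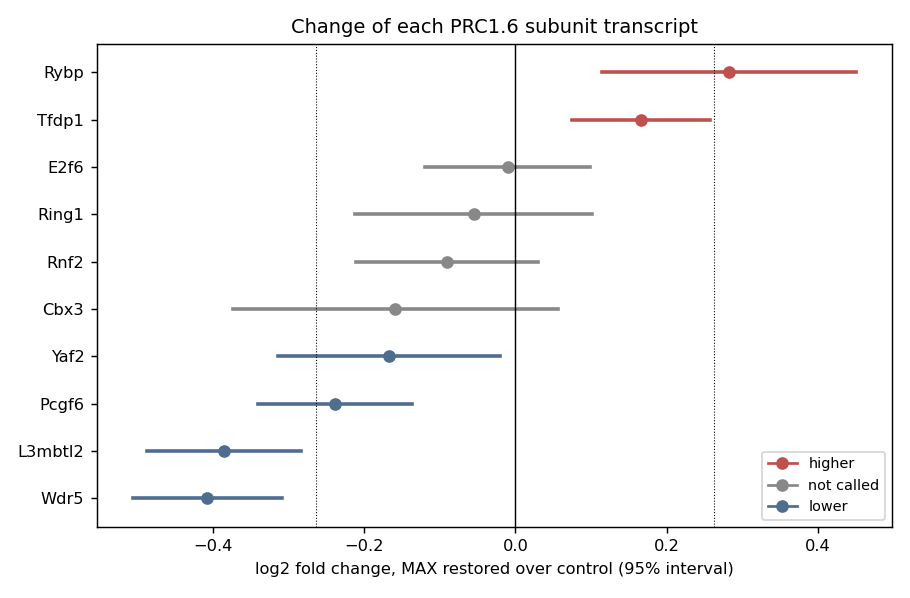
Log2 fold change of each PRC1.6 subunit, MAX restored over control (points), with 95% intervals from edgeR's quasi-likelihood fit (lines); colours give the call and dotted lines mark 1.2-fold in each direction. The intervals of Wdr5 and L3mbtl2 lie wholly beyond 1.2-fold lower, that of Rybp spans 1.2-fold higher, and those of E2f6, Ring1, Rnf2 and Cbx3 include 0.

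Wdr5 and L3mbtl2 were also the only subunits past a stricter question, whether the change exceeded 1.2-fold (edgeR glmTreat, adjusted p = 0.00291 and 0.00951). Of all tested genes 31.6% passed that test, against 2 of 10 subunits. Rybp, with the largest rise, did not pass it (adjusted p = 0.406).

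Levels per length put the subunits in the same order in both groups. RPKM values (CPM divided by exonic length in kilobases) were highest for Tfdp1, at 73.0 ± 1.33 with MAX restored and 65.1 ± 1.69 in controls (SD, n = 3 each). Wdr5 followed at 32.3 ± 1.19 RPKM with MAX restored and 42.8 ± 0.286 in controls, then Pcgf6 at 31.1 ± 0.493 with MAX restored and 36.7 ± 1.21 in controls. E2f6 had 25.6 ± 0.380 RPKM with MAX restored and 25.7 ± 1.30 in controls. L3mbtl2 had 17.0 ± 0.220 RPKM with MAX restored and 22.1 ± 0.842 in controls. Rnf2, Ring1 and Yaf2 lay between 13.1 and 16.9 RPKM with MAX restored and between 14.7 and 18.1 in controls. The lowest were Cbx3, at 8.64 ± 0.332 RPKM with MAX restored and 9.64 ± 1.22 in controls, and Rybp, at 6.23 ± 0.0389 with MAX restored and 5.13 ± 0.407 in controls. Both have named pseudogenes, so their place in this order can be understated. The RPKM ranges of neighbours in this order did not overlap, except those of Wdr5 and Pcgf6 and of L3mbtl2 and Rnf2 with MAX restored, and of Ring1 and Yaf2 in controls. The sum over the 10 subunits was 631 to 636 CPM with MAX restored and 678 to 687 CPM in controls. The groups of that sum did not overlap.

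Set beside their paralogues, the subunits differed in how much of a family they made up. Tfdp1 gave 83.1% to 83.8% of DP family RPKM with MAX restored and 77.5% to 80.1% in controls; its paralogue Tfdp2 fell (log2 -0.29, SE 0.05; edgeR adjusted p = 5.56e-05). E2f6 gave 11.1% to 11.4% of the RPKM of the 8 E2F genes with MAX restored and 9.46% to 9.98% in controls. Its own CPM did not pass the test while E2f1, E2f3, E2f4, E2f5 and E2f8 fell, E2f5 most (log2 -0.84, SE 0.08; edgeR adjusted p = 3.82e-08), and E2f7 rose. Pcgf6 was 18.9% to 19.5% of PCGF RPKM with MAX restored and 19.5% to 20.4% in controls. Pcgf5 and Pcgf1, which build other variant PRC1 forms, also fell, with log2 -0.62 (SE 0.10) and -0.54 (SE 0.14), with edgeR adjusted p of 1.74e-05 and 0.00268. Bmi1, the PCGF gene of highest RPKM, fell less (log2 -0.17, SE 0.05, edgeR adjusted p = 0.00523). Pcgf2 (log2 -0.03) and Pcgf3 (0.04) did not pass the test. Among the 7 MBT repeat genes L3mbtl2 and Sfmbt1 dominated, and L3mbtl2 held 35.7% to 37.9% of RPKM with MAX restored and 45.4% to 47.5% in controls. L3mbtl3, which averaged 1.51 CPM with MAX restored and 0.655 CPM in controls, rose (log2 1.19, SE 0.36; edgeR adjusted p = 0.00719). Wdr5b, a relative of Wdr5, rose to 12.1 CPM with MAX restored, against 9.63 CPM in controls (log2 0.33, SE 0.13; edgeR adjusted p = 0.029). The other HP1 genes, Cbx1 (log2 -0.32) and Cbx5 (log2 -0.26), both fell. Of the 19 tested of 22 listed paralogues 4 were higher and 11 lower (median log2 fold change -0.17), where 31.2% of all tested genes were higher and 32.3% lower.

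**Figure D3:**
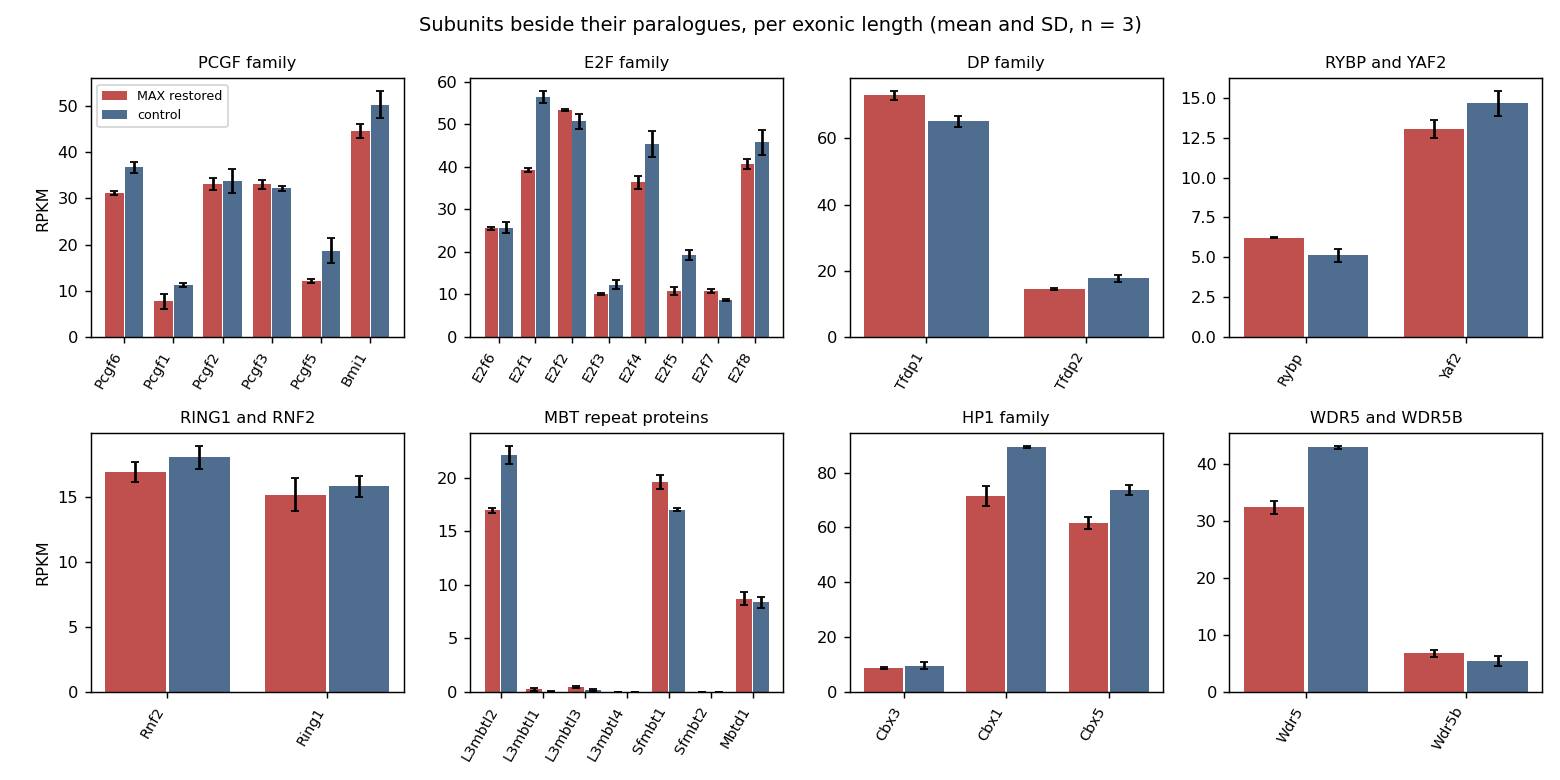
Mean RPKM (vertical axes, from 0) with SD over 3 libraries for each subunit beside its paralogues, MAX restored in red and control in blue. Tfdp1 and Wdr5 exceed their paralogues in both groups, Yaf2 exceeds Rybp, and Cbx3 is the lowest of the HP1 genes. Cbx3 and Rybp have named pseudogenes, so their levels can be understated, and pseudogenes of the other HP1 genes were not looked up.

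Other polycomb genes were also split between both directions. Of 26 subunits of other PRC1 forms 9 were higher and 5 lower (median log2 fold change 0.06). The CBX gene Cbx8 (log2 0.70, SE 0.11) and the polyhomeotic gene Phc2 (log2 0.62, SE 0.04) rose most, and the largest falls were those of Pcgf5 and Pcgf1. Among 12 PRC2 genes, which encode the complex that methylates histone H3, 1 was higher and 7 lower, with a median of -0.26. The PRC2 cofactor E130012A19Rik (log2 -1.43, SE 0.08), the histone binder Rbbp7 (-0.93, SE 0.03) and the accessory subunit Phf19 (-0.85, SE 0.05) fell, Phf1 rose (0.43, SE 0.07), and the catalytic subunit gene Ezh2 had 144 CPM in both groups (-0.0056, SE 0.05). Of 8 H2A deubiquitinase genes and cofactors, which act against PRC1, 3 were lower and none higher: Asxl2 (log2 -0.22), Usp16 (-0.19) and Asxl1 (-0.15); the median of the 8 was -0.04, and without MAX restored library 2 only 1 was called. Of the 4 histone methyltransferase and deacetylase genes tied to E2F6 complexes, Ehmt2 was lower (log2 -0.11, SE 0.04; edgeR adjusted p = 0.0303), but none was called without MAX restored library 1 or 3, and 2 were without control 2. Of 12 partners of WDR5 in MLL complexes 4 were higher and 1 lower, with a median of 0.07. Hcfc1 (log2 0.36), Men1 (0.22), Cxxc1 (0.20) and Ash2l (0.11, edgeR adjusted p = 0.0494) rose and Kmt2d (-0.13) fell. Calls among these partners numbered 4 to 7 when single libraries were left out. In each of these lists the calls are those of edgeR's test over all genes. Of all tested genes 63.5% passed, 31.2% higher and 32.3% lower.

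**Figure D4:**
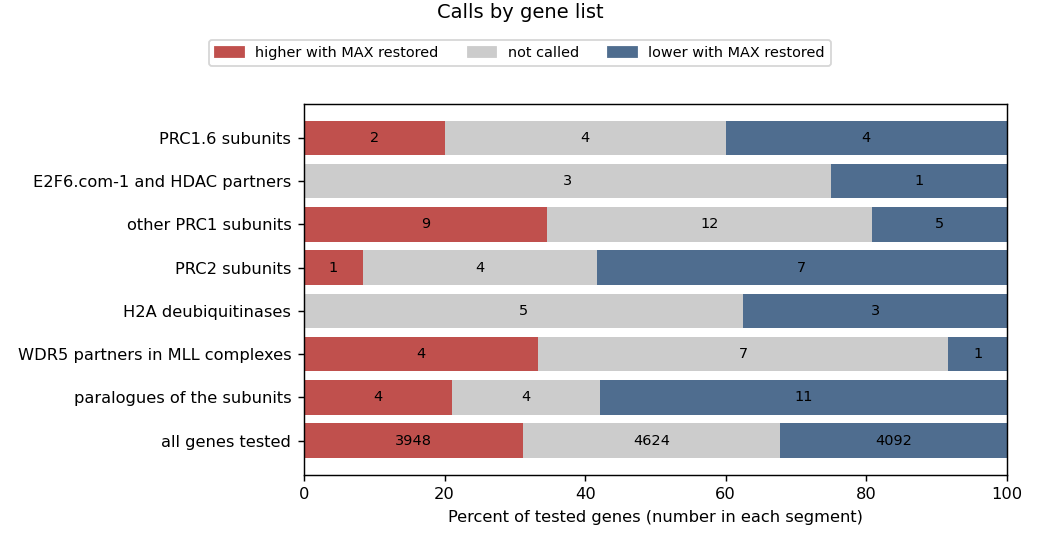
Percent of tested genes called higher (red), not called (grey) or called lower (blue) with MAX restored over control, by list, with the number of genes in each segment. The PRC1.6 subunits split 2, 4 and 4, and all 12664 tested genes 3948, 4624 and 4092.

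Germline genes known as PRC1.6 targets were scarce. Of 20 listed, 18 were in the annotation and 4 passed the filter on low counts; the other 14 were not tested. Tdrkh, a piRNA pathway gene, averaged 66.5 CPM with MAX restored and 94.2 CPM in controls (log2 -0.50, SE 0.05; edgeR adjusted p = 1.04e-07), and Stag3, a meiotic cohesin gene, 172 CPM with MAX restored and 239 CPM in controls (log2 -0.48, SE 0.05; adjusted p = 2.17e-08). Zcwpw1 (log2 0.09, adjusted p = 0.25) and Tex11 (-0.73, adjusted p = 0.0569) did not pass. Calls thus numbered 2 of the 4 tested, where 63.5% of all tested genes were called. The untested genes did not all lean 1 way. Tdrd1 had 8 to 16 counts with MAX restored and 0 to 3 in controls. Tex101 had 1 to 2 counts with MAX restored and 2 to 5 in controls. The 18 genes summed to 276 to 292 CPM with MAX restored and 370 to 387 CPM in controls, nearly all of it from Stag3, Tdrkh and Zcwpw1.

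The profiles closest to those of the subunits at either end were found from the distance between log2 CPM values centred per gene over the 6 libraries. Closest to Rybp were Magee1 (distance 0.0538, log2 fold change 0.26) and Pdcd4 (0.0744, 0.24), and closest to Wdr5 were Mctp2 (0.0410, -0.40) and Cdkn2aipnl (0.0421, -0.44). With 6 libraries in 2 groups this likeness reflects mainly the group difference.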

How the data were processed

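RNA was sequenced from 6 libraries, each made from 500 ng of total RNA. The authors deposited 1 file of raw counts a library. Per the submitters' processing notes they used bcl2fastq 1.8.4 and STAR 2.5.2a; per the file headers they counted with featureCounts 1.6.0 over UCSC mm9 exons, ignoring strand and leaving out reads with several positions or genes.

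Groups came from the titles. Genes were filtered with filterByExpr (minimum count 10; 12664 of 24391 kept), scaled by TMM and tested with edgeR 4.0.16 (quasi-likelihood, group only, two-sided, Benjamini-Hochberg over all genes tested, threshold 0.05) in R 4.3.3. A standard error is the coefficient's size divided by the root of F, and 95% intervals use the fit's degrees of freedom. No pair of libraries agreed within sampling noise (chi-square over genes with 20 counts or more). Within-library ratios were compared by exact permutation. Scripts were tested on simulated data. Alternatives were other scalings and filters, DESeq2 1.42.0, limma 3.58.1 (voom), a minimum change of 1.2-fold, the replicate number as a block, and leaving out each library.

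The genes named were all subunits, Max and Mga, up to 4 called genes of each other list by size of change (2 where none was called), and the 2 closest profiles for the subunits at either end. Other genes named, among them further paralogues, Ezh2, Ash2l, Chadl, Rn45s and single markers, were picked after seeing values. Members and lists were chosen with earlier results of these data known.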

Additional observations from a re-analysis of the deposited data

How the results depend on the processing

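The calls of Tfdp1, L3mbtl2, Pcgf6, Rybp and Wdr5 kept their direction and side of the threshold under RLE, upper quartile and total count scaling, both other filters, DESeq2, limma voom and the replicate block, and without any single library. Subunits called higher stayed at 2 and those called lower between 3 and 4 in these settings. Yaf2 was not called with upper quartile scaling (log2 -0.14), without a filter on low counts (-0.17, adjusted p = 0.0501), with a minimum count of 50 (-0.15), with DESeq2 (-0.17) or with the replicate number as a block (-0.16, adjusted p = 0.052). E2f6, near 0, changed sign with upper quartile scaling (log2 0.015) and with a minimum count of 50 (0.011). A test against a change of 1.2-fold called no subunit higher and 2 of 10 lower. Of all 12664 tested genes it called 2111 higher and 1896 lower, 31.6% in either direction. Tfdp1 (0.17), Pcgf6 (-0.24), Rybp (0.28) and Yaf2 (-0.17) did not pass it. That stricter question also left 5 called of 26 other PRC1 subunits, 5 of 12 PRC2 genes, 5 of 19 tested paralogues and 1 of 12 WDR5 partners. It left 0 of 8 H2A deubiquitinase genes and 0 of 4 E2F6 and HDAC partners. The E2F6 and HDAC partners had 0 calls with upper quartile scaling and with a minimum count of 50, and 2 without a filter and with the replicate block. Germline targets called numbered 4 without a filter, where genes of low counts were tested too, and 3 with DESeq2 or without control 3. The main fit called 2 of the 4 tested, beside 63.5% of all tested genes. The cause of these changes was not tested.

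Leaving out each library gave log2 fold changes of -0.053 to 0.013 for E2f6, 0.15 to 0.19 for Tfdp1, -0.40 to -0.35 for L3mbtl2, -0.26 to -0.22 for Pcgf6, -0.26 to -0.096 for Cbx3, -0.094 to 0.015 for Ring1, -0.12 to -0.050 for Rnf2, 0.22 to 0.32 for Rybp, -0.21 to -0.13 for Yaf2 and -0.43 to -0.38 for Wdr5. The log2 difference in the ratio of Rybp to Yaf2 lay between 0.39 and 0.51, and that of Ring1 to Rnf2 between -0.049 and 0.091. Calls numbered 0 to 2 for the 4 E2F6 and HDAC partners and 1 to 4 for the 8 H2A deubiquitinase genes. The labels do not say whether the replicate numbers pair the libraries. Deviations of same-numbered libraries from their group means correlated at 0.00351, 0.0355 and -0.0241, and those of differently numbered libraries at -0.0695 to 0.0635. With 3 libraries a group these values cannot decide whether the design is paired. With the number as a block 3941 genes were higher and 4093 lower, against 3948 and 4092, and the paired difference in the ratio of Rybp to Yaf2 was the same 0.45 (exact sign-flip permutation p = 0.25, the smallest that 3 pairs allow). The 95% interval of Cbx3, -0.37 to 0.06 in log2 fold change, was the widest of the 10 on that scale; it had the fewest counts and a coefficient of variation of 3.85% with MAX restored and 12.7% in controls, and the parts of depth and of spread between libraries were not told apart.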
